A study of Arabidopsis thaliana with 8 samples.

Results

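The fiery1 and se mutants of Arabidopsis thaliana were compared by the places at which their MIRNA precursors had been cut. The 4 libraries titled with these genotypes, 2 of fiery1 and 2 of se, were taken from the 8 libraries of the series. The assay was SPARE (specific parallel analysis of RNA ends), in which an RNA adapter is ligated to uncapped 5′ ends and precursors are then copied with specific primers, so that a tag begins where a cut or a degrading enzyme left a 5′ end on the 3′ part of a precursor. Plants were 10-day-old seedlings grown in continuous light. They were homozygous for a fiery1 mutation or for an se mutation. The labels name neither the alleles nor the parental accession of the mutants, nor do they say whether the replicates came from separate cultures. The p-values therefore measure the spread between libraries, which may be technical. For abundance this spread was estimated over all 8 libraries of the series. The others are of hyl1 and of wild type, also from 10-day-old seedlings. The FIERY1 and SE transcripts were not analysed here.

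FIERY1 is a phosphatase that clears a by-product of sulfur metabolism which otherwise inhibits the XRN exoribonucleases, enzymes that degrade uncapped RNA from its 5′ end. SE (SERRATE) is a zinc-finger protein that works with the nuclease DCL1 and the double-stranded RNA-binding protein HYL1 in cutting the miRNA duplex out of the hairpin. DCL1 cuts some plant hairpins from the base towards the loop and others from the loop towards the base, so the 5′ ends left on the 3′ side of the hairpin mark single steps of this process.

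Counts of tags of 26 nt or more were used, 453388 and 795030 in fiery1 and 41677 and 82159 in se. Tags under 26 nt, 3.70% and 3.23% of the counts in fiery1 and 86.1% and 83.9% in se, were set aside by the rule of the comparison. Precursors with at least 1 count numbered 87 and 88 in the fiery1 libraries and 58 and 55 in the se libraries, and 89 had a count in at least 1 of the 4. Of these, 24 had counts in both fiery1 libraries and in neither se library, 0 had the reverse, and 49 had counts in all 4. These numbers depend on the length limit. With tags of all lengths, 106 precursors had a count in each fiery1 library, and 100 and 98 in the se libraries. Distinct 5′ positions of tags of 26 nt or more numbered 1164 and 1180 in fiery1 and 333 and 335 in se. At an equal depth of 41677 counts the numbers expected were 907 and 904 in fiery1 and 333 and 273 in se. The tags carry no molecular identifiers, so equal counts need not be equal numbers of molecules. The part of library depth in the differences in precursors and in positions was not tested. The second se library carries another source label than the first and a later record number, and values without it are given beside the main comparisons.

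An end was called base-side when it lay within 1 nt of the first base that follows the miRNA or miRNA* of the 3′ arm, and loop-side when it lay within 1 nt of the first base of that strand. Every other end was called other. This could be done for 70 precursors with counts in the 4 libraries whose 3′-arm strand is annotated in the reference. Genome windows of 7 precursors on which the results turn are shown with that strand in capitals, read 5′ to 3′ on the strand of the gene from the TAIR10.1 reference. The first capital is the loop-side end, and the first lower-case base after the capitals is the base-side end.
MIR156a: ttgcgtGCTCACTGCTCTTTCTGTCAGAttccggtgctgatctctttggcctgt
MIR159b: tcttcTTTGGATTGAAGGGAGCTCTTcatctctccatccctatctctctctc
MIR162a: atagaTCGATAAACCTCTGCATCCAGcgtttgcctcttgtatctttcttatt
MIR169a: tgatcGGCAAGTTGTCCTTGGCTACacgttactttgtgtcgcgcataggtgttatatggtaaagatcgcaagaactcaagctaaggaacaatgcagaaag
MIR171c: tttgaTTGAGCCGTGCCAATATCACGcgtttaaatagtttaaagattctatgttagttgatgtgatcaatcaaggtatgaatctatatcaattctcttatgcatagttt
MIR396b: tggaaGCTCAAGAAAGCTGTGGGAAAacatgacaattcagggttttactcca
MIR399b: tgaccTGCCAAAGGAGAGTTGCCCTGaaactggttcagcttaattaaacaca
The windows are chr2:10676444-10676497 on the minus strand for MIR156a (AT2G25095), chr1:6220808-6220859 on the plus strand for MIR159b (AT1G18075), chr5:2634910-2634961 on the minus strand for MIR162a (AT5G08185), chr3:4358936-4359035 on the minus strand for MIR169a (AT3G13405), chr1:22930012-22930120 on the minus strand for MIR171c (AT1G62035), chr5:13611899-13611950 on the plus strand for MIR396b (AT5G35407) and chr1:23345361-23345412 on the minus strand for MIR399b (AT1G63005). All 7 lie within or beside the hairpins of genes annotated as miRNA precursors, and every tag that starts in these windows matches the printed letters.

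Base-side ends prevailed in fiery1 and ends off both cut sites prevailed in se. Base-side ends held 69.6% and 68.1% of the counts in the fiery1 libraries (68.8% ± 1.07, SD, n = 2) and 28.9% and 26.7% in the se libraries (27.8% ± 1.58, SD, n = 2), a difference of 41.04 points. Loop-side ends held 5.96% and 6.88% in fiery1 and 14.6% and 11.6% in se, a difference of -6.67 points. Other ends held 24.5% and 25.1% in fiery1 and 56.5% and 61.7% in se, a difference of -34.37 points. In none of the 3 classes did the libraries of the genotypes overlap, and each exact two-sided permutation test gave p = 0.333, the smallest value that 2 libraries against 2 can give. Without the second se library the 3 differences were 39.92, -8.15 and -31.77 points. With tags of all lengths the loop-side difference turned to 4.07 points. Of the tags under 26 nt counted there, 0% were at loop-side ends in fiery1 and at most 0.0231% in se. This was largely fixed in advance. The base site lay at least 26 nt from the most used 3′ end of tags below the longest length in all 27 precursors tested for ends below, and the loop site lay further still. Short tags with that 3′ end can only be other ends, so adding them lowers the base-side and loop-side shares of se by construction.

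**Figure D1:**
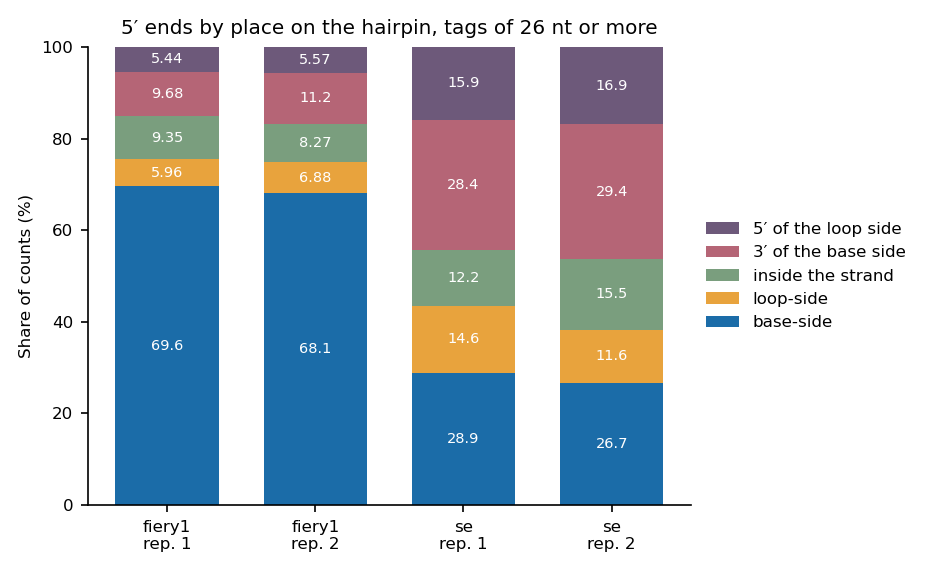
Share of counts (%, vertical axis) by place of the 5′ end relative to the 3′-arm strand, in the 2 fiery1 libraries and the 2 se libraries, for tags of 26 nt or more. Base-side ends fill 69.6% and 68.1% of the fiery1 bars and 28.9% and 26.7% of the se bars, and ends 3′ of the base side 9.68% and 11.2% against 28.4% and 29.4%.

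The other ends lay mostly beyond the strand rather than within it. Ends 3′ of the base side, in the stem below the duplex or in the flanking transcript, held 9.68% and 11.2% in fiery1 and 28.4% and 29.4% in se. Ends 5′ of the loop side, in the loop, the 5′ arm or further upstream, held 5.44% and 5.57% in fiery1 and 15.9% and 16.9% in se. Ends inside the strand held 9.35% and 8.27% in fiery1 and 12.2% and 15.5% in se. All 3 places had higher shares in both se libraries than in either fiery1 library. Ends upstream of the whole annotated precursor, in sequence that a primary transcript holds and an excised hairpin does not, made up 0.520% ± 0.0801 of the counts in fiery1 and 4.19% ± 0.0776 in se (SD, n = 2 each). By precursor this upstream share was higher without overlap in fiery1 in 4 of the 27 precursors tested for ends, lower in 5 and overlapping in 18. Most of the 18 had 0% in all 4 libraries. MIR158a was among the 4, with 13.03% and 5.30% in fiery1 and 0% in both se libraries. The rest of the 4, MIR159b, MIR399c and MIR408, had at most 0.52% in fiery1. The 5 lower in fiery1 were MIR156a, MIR156c, MIR162a, MIR398b and MIR403, with 5.57% to 100% in se and at most 14.1% in fiery1. Ends downstream of the annotated precursor made up 10.2% ± 0.493 in fiery1 and 26.6% ± 0.598 in se. These ends outside the annotated precursor are given as a description, added after the data were seen.

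The class of ends was then tested precursor by precursor in the 27 precursors that reached 20 counts in all 4 libraries, with limma on the logit of the share (log2 scale, 0.5 added to each count). The median precursor had a base-side share 37.98 points higher in fiery1. The base-side share was higher in both fiery1 libraries than in both se libraries in 20 precursors, lower in 1, and overlapping in 6. limma called 12 of the 27, 44.4% of the precursors tested, with 11 higher and 1 lower in fiery1 and adjusted p between 0.00529 and 0.0284. Without either fiery1 library no call remained, with 7 at an unadjusted p under 0.05 in each case, and without either se library 24 were called (21 higher and 3 lower each time). Each such fit leaves 1 library in an arm, whose spread is then taken to be that of the other genotype's pair. The median SD of the base-side share was 1.05 points in fiery1 and 2.99 in se, so these counts do not speak to stability. Binomial intervals (Wilson, 95%) around these per-library shares had a median width of 1.499 points and cover counting error only, since the tags carry no molecular identifiers.

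The precursors of miR156, which targets SPL transcription factors of the juvenile-to-adult transition, had the largest differences of the 27 in percentage points. MIR156c had base-side shares of 95.2% and 92.4% in fiery1, against 3.56% and 1.29% in se (limma, adjusted p = 0.00681). MIR156a had 80.5% and 85.9% in fiery1 and 0.339% and 0.274% in se (limma, adjusted p = 0.00529). In both precursors the fiery1 libraries stood far above the se libraries, yet the se ends went to different places. In MIR156a the most used end of both se libraries lay at the loop side, with 5.33% and 6.84% of all ends there in fiery1 and 39.3% and 80.2% in se, that is at the first capital of the window shown above or 1 base before it. In MIR156c the loop side held 2.18% and 3.45% in fiery1 and 0% in both se libraries, where 0 of 758 and 0 of 2251 counts allow up to 0.396% and 0.133%. The se ends of MIR156c were scattered instead, with 49.5% and 14.0% at 1 position 80 nt beyond the base site, where fiery1 had 1.41% and 2.01%. Upstream of the annotated precursor MIR156c had 0% in both fiery1 libraries and 10.2% and 56.7% in se.

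MIR159a and MIR159b encode miR159, which targets MYB transcription factors, from long hairpins that are cut in several steps starting next to the loop. MIR159b had base-side shares of 36.2% and 37.7% in fiery1, against 3.29% and 1.38% in se (limma, adjusted p = 0.0161). Its loop-side shares were 18.4% and 19.1% in fiery1 and 33.3% and 37.6% in se. The main end of MIR159b thus differed between the genotypes, as the 2 libraries of each genotype shared it. In fiery1 the most used end was the first base after the capitals (chromosome 1, 6220834), with 33.8% and 34.5% in fiery1 and 3.25% and 1.38% in se. In se it was the first capital (6220813), with 16.3% and 17.4% in fiery1 and 31.8% and 37.6% in se. An end 50 nt before the base site held 8.14% and 6.56% in fiery1 and 7.52% and 24.9% in se. MIR159a had base-side shares of 71.9% and 55.5% in fiery1, against 0% in both se libraries (limma, adjusted p = 0.00681), where 0 of 85 and 0 of 211 counts allow up to 3.53% and 1.42%. All counts of MIR159a in the first se library began at 1 position 68 nt beyond the base site, and all those in the second at 1 position 202 nt before it.

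**Figure D2:**
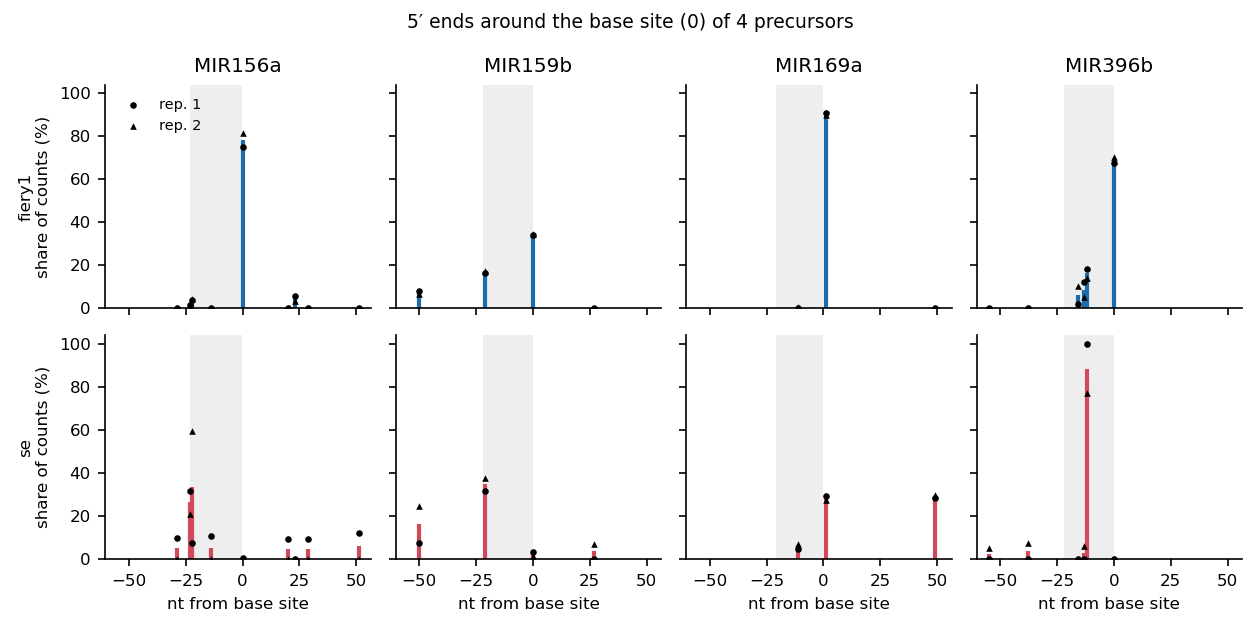
Share of counts (%, vertical axis) at each 5′ end by its distance from the base site (nt, horizontal axis, 0 at the base site), for 4 precursors, with fiery1 above se. Bars are means of 2 libraries, points are the libraries, the grey band is the 3′-arm strand, and ends under 5% in all 4 libraries are left out. The tall fiery1 bar at or 1 nt from 0 is at most 3.25% in any se library of MIR156a, MIR159b and MIR396b and shorter in MIR169a, which has a further bar at 49 nt in se.

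MIR171b and MIR171c encode miR171, which targets GRAS transcription factors. MIR171c had base-side shares of 33.5% and 53.2% in fiery1, against 0% and 0.137% in se (limma, adjusted p = 0.00856). In se many of its ends lay 57 nt beyond the base site, in the lower-case part of the window shown above. That position held 2.59% and 2.14% in fiery1 and 36.8% and 27.5% in se. The main end of the second se library was another one, 59 nt beyond the base site. It held 0.865% and 0.214% in fiery1 and 0.0918% and 31.0% in se. MIR171b had base-side shares of 71.4% and 70.4% in fiery1, against 35.1% and 30.8% in se (limma, adjusted p = 0.0269). The 2 se libraries of MIR171b disagreed on the remaining ends, with 60.8% and 0.145% at the loop side, against 15.9% and 11.2% in fiery1. MIR162a encodes miR162, which targets the DCL1 transcript itself. Its base-side shares, 74.2% in both fiery1 libraries and 26.5% and 0.441% in se, were not called. Its loop-side shares were 4.68% and 2.68% in fiery1 and 25.5% and 21.6% in se. In MIR162a 11.4% and 14.1% of the fiery1 counts and 47.8% and 37.8% of the se counts began upstream of the annotated precursor.

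MIR169a, MIR396b, MIR398b and MIR399b belong to families described as processed from the base towards the loop. MIR169a encodes a miRNA against NF-YA transcription factors. It had base-side shares of 91.0% and 90.3% in fiery1, against 29.1% and 27.4% in se (limma, adjusted p = 0.00681). A second MIR169a end, 49 nt beyond the base site on chromosome 3 at 4358961, held 0.132% and 0.0733% in fiery1 and 28.4% and 29.6% in se, and here the se libraries matched each other closely. MIR396b encodes a miRNA against GRF growth-regulating factors. It had base-side shares of 67.7% and 70.5% in fiery1, against 0.0892% and 0% in se (limma, adjusted p = 0.0106). The se ends of MIR396b lay inside the capitals, 12 nt before the base site, with 18.3% and 14.1% in fiery1 and 99.9% and 77.2% in se. That end was the main one in both se libraries and the second in both fiery1 libraries. MIR398b, from which a miRNA against copper/zinc superoxide dismutases is made, had base-side shares of 91.0% and 89.0% in fiery1, against 66.5% and 59.9% in se (limma, adjusted p = 0.0284).

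MIR158a, whose miRNA targets pentatricopeptide repeat transcripts, had base-side shares of 49.7% and 59.4% in fiery1, against 0.510% and 0.719% in se (limma, adjusted p = 0.00681). These se values of MIR158a rest on 196 and 139 counts, and the se libraries differed in their main end. It lay 67 nt beyond the base site in the first, with 41.3%, and 43 nt beyond it in the second, with 99.3%. Some other precursors showed a smaller difference or the opposite one. MIR399b, of a phosphate-responsive family aimed at PHO2, had base-side shares of 22.2% and 31.2% in fiery1, against 0.139% and 0.0552% in se (limma, adjusted p = 0.00681). This call of MIR399b depends on the tolerance, since its main end lies 2 nt before the annotated base site, inside the last capitals, with 61.5% and 57.7% in fiery1 and 99.7% and 99.9% in se. Within 2 nt the difference of MIR399b was -7.68 on the logit scale (limma, adjusted p = 0.0231), with the base side then lower in fiery1. MIR393b, whose miRNA targets the TIR1/AFB auxin receptors, was the 1 precursor called lower, with 91.6% and 92.9% in fiery1 and 100% in both se libraries (limma, adjusted p = 0.0225), from 50 and 101 counts in se. With tags of all lengths MIR393b was higher in fiery1, by 5.48 on the logit scale, where the added short tags count as other ends and most of them are in se. MIR399a and MIR824, whose miRNA targets the MADS-box gene AGL16, had between 99.9% and 100% of their ends at the base side in all 4 libraries.

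**Figure D3:**
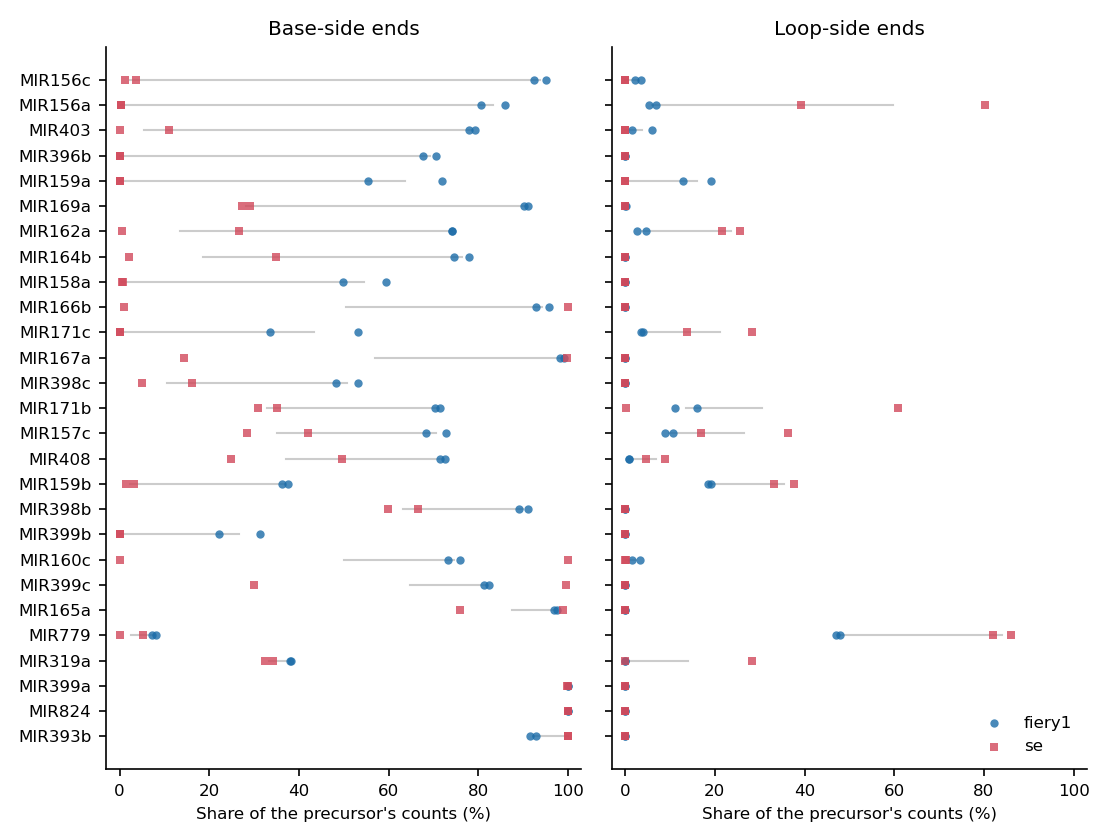
Share of each precursor's counts (%, horizontal axes) at base-side ends (left) and loop-side ends (right) in 27 precursors, ordered by the base-side difference. Points are libraries of fiery1 (circles) and se (squares), and grey lines join the genotype means. The base-side points of fiery1 lie above those of se in 20 precursors, and the 2 se points are often far apart.

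Loop-side ends moved in both directions. Their share was higher without overlap in fiery1 in 6 precursors, lower in 7 and overlapping in 14, of which 11 had no loop-side count in any of the 4 libraries. limma called 16 of the 27, 59.3%, with 3 higher and 13 lower, but 7 of these calls were of precursors with no loop-side count at all, where the constant 0.5 against a smaller se total sets the value. With a constant scaled to the total count 4 were called, 3 of them among the 16, and the other was MIR159b, lower in fiery1. Without the first or second fiery1 library 0 were called by limma, with 4 and 3 at an unadjusted p under 0.05, and without the second se library 12 were called, with 2 higher and 10 lower. Higher in fiery1 under both constants were MIR156c and MIR159a (limma, adjusted p = 0.0120 each), the second with 19.2% and 12.8% in fiery1 and 0% in both se libraries. Lower under both was MIR779, with 46.9% and 48.0% in fiery1 and 82.1% and 86.1% in se (limma, adjusted p = 0.0400). Of the 13 lower calls 5 were of precursors whose shares did not overlap. MIR164b, also called lower, had 3 loop-side counts, all in fiery1, and with the scaled constant its difference was 0.97 (limma, adjusted p = 0.688). Called with the fixed constant alone, among those whose shares did not overlap, were MIR160c, whose miRNA targets ARF transcription factors and which had 1.497% and 3.23% in fiery1 and 0% and 0.167% in se, and MIR156a, MIR162a, MIR171c and MIR408, all 4 lower in fiery1. MIR408, whose miRNA targets copper-binding proteins, had 0.834% and 0.776% in fiery1 and 4.71% and 8.87% in se. The adjusted p with the scaled constant (limma) was 0.135 for MIR156a, 0.0562 for MIR162a, 0.120 for MIR171c, 0.0562 for MIR408 and 0.128 for MIR160c.

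Other ends are what base-side and loop-side ends leave of a precursor's counts, so their shares are no separate result. In the 11 precursors without a loop-side count their logit difference is that of the base side with the sign turned. Other ends were lower without overlap in fiery1 in 17 precursors, higher in 2 and overlapping in 8, with a median difference of -26.80 points. limma called 9 of the 27, 33.3%, with MIR156c, MIR159a, MIR396b, MIR169a, MIR158a, MIR398b and MIR399b lower in fiery1 and MIR779 and MIR393b higher, and without either fiery1 library limma called 0, with 5 at an unadjusted p under 0.05 each time, and without the second se library 24, with 5 higher and 19 lower. In MIR156c the other ends held 2.62% and 4.10% in fiery1 and 96.4% and 98.7% in se. In MIR779 they held 45.9% and 43.8% in fiery1 and 12.7% and 13.8% in se. The base-side share of MIR779 was not lower in fiery1, at 7.14% and 8.21% beside 5.20% and 0.112% in se. MIR779 carries 2 annotated strands on its 3′ arm, and ends at either strand were counted.

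The fiery1 libraries used the same ends and the se libraries often did not. For the 32 precursors that reached 20 counts in all 4 libraries, annotated strand or not, the most used end was the same position in both fiery1 libraries in 32 and in both se libraries in 16. It was the same in all 4 libraries in 12. The share of counts that fell on the same ends in a pair of libraries had a median of 91.1% between the fiery1 libraries and 41.8% between the se libraries, and 34.4% between libraries of different genotype. Between the fiery1 libraries it was 72.7% or more in all 32, and between the se libraries it was under 50% in 20. In 16 of the 32 the se libraries shared more with each other than with fiery1. The se totals per precursor were smaller, and their part in this spread was not tested. Among the 27 annotated precursors the main end was base-side in 25 in each fiery1 library and in 13 and 10 in the se libraries, and it was an other end in 1 in each fiery1 library and in 10 and 14 in the se libraries. A main end nevertheless held most counts in either genotype, with a median share of 72.3% in both fiery1 libraries and 61.4% and 60.3% in the se libraries.

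**Figure D4:**
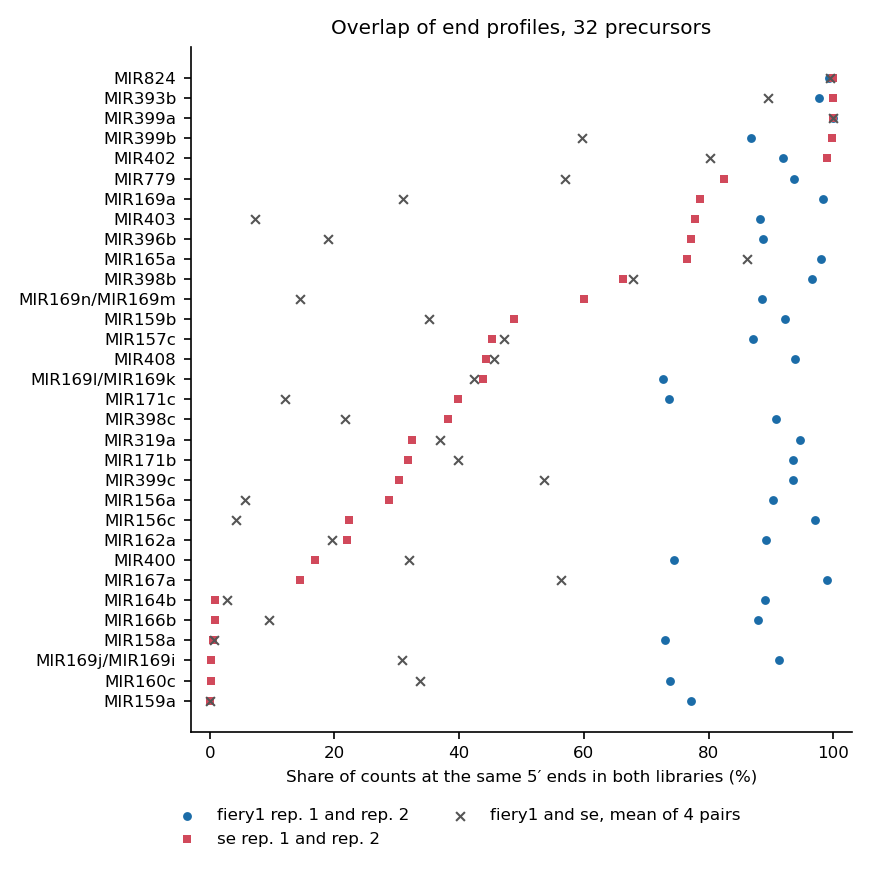
Share of counts at the same 5′ ends (%, horizontal axis) for 32 precursors, between the fiery1 libraries (circles), between the se libraries (squares) and between the genotypes (crosses, mean of 4 pairs), ordered by the se value. The fiery1 points lie between 72.7% and 100%, and the se points run from 0% to 100%.

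A main end that was the same within each genotype and differed between them was found in 4 precursors. MIR159b and MIR396b are described above. MIR403 encodes a miRNA against AGO2 and had its main end at the base side in fiery1 (chromosome 2, 19415175), with 74.9% and 75.5% in fiery1 and 11.1% and 0% in se. In se the main end of MIR403 lay 169 nt before the base site, upstream of the annotated precursor, with 0% in both fiery1 libraries and 77.8% and 100% in se. These se values rest on 27 and 180 counts, and the Wilson interval of the 11.1% runs from 3.85% to 28.1%. The tandem precursors MIR169n and MIR169m could not be separated by their tags. Their joint main end was at chromosome 3, 9878185, with 91.2% and 79.7% in fiery1 and 0% in both se libraries, and in se it was at 9878538, with 8.82% and 20.3% in fiery1 and 100% and 60.05% in se. The fiery1 position lies within the annotated MIR169m hairpin (9878168-9878379). The se position lies just 3′ of the annotated MIR169n hairpin (9878540-9878754, minus strand), so the 2 main ends belong to different hairpins.

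By the direction in which families are known to be processed, the loop-to-base families (miR156, miR157, miR159, miR160, miR162, miR171 and miR319) had 10 precursors tested for ends. Of these, 9 had a higher base-side share in fiery1 without overlap, and limma called 6, all of them higher. Over all 27 precursors 20 were higher without overlap and limma called 12, of which 11 were higher. The loop-to-base families' median base-side difference was 40.62 points, beside 37.98 over all 27, and their median loop-side difference was -16.71 points, beside 0. The sequential families among them (miR159 and miR319) had 3 tested, all 3 higher without overlap and 2 called. The short base-to-loop families (miR164 through miR169 and miR395 through miR399, with miR172, miR390, miR393, miR403 and miR408) had 14 tested, with 9 higher without overlap, 4 called higher and 1 called lower. Their median base-side difference was 37.45 points and their median loop-side difference 0. Nutrient-responsive families (miR395, miR397 to miR399, miR408, miR827 and miR857) had 6 tested, with 5 higher without overlap, 2 called and a median of 26.72 points. The 5 include MIR399a, at 99.9% or more in every library, and MIR399b, which was called but whose difference reversed within 2 nt. Both also count as higher in the short base-to-loop families and over all 27. Whether the families differ from each other was not tested.

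The same 5 precursors led both genotypes in abundance by mean share of the library. The 5 largest precursors, taken in each library separately, held 59.7% and 56.7% of counts in fiery1 and 61.4% and 57.6% in se. In the second se library MIR396b, at 4.60%, stood above MIR779 and was among its 5. MIR398b held 16.9% and 13.2% in fiery1 and 14.96% and 13.6% in se. MIR398c, from a second gene for the same family, held 14.3% and 10.4% in fiery1 and 9.19% and 6.51% in se. MIR169a held 12.02% and 12.4% in fiery1 and 16.3% and 23.97% in se. MIR159b held 9.19% and 14.6% in fiery1 and 12.7% and 8.92% in se, and MIR779 held 7.37% and 6.13% in fiery1 and 8.21% and 4.35% in se. Among these, MIR398c and MIR169a did not overlap between the genotypes on the share of the library, and the other 3 did. These shares are relative to the other precursors in the same library, so fewer precursor molecules in all cannot be told apart from a deeper or shallower library.

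In abundance edgeR's quasi-likelihood test called 6 of 74 precursors, 8.11%, with 5 higher and 1 lower in fiery1 (adjusted p between 0.0205 and 0.0363). It put 25 at an unadjusted p under 0.05. Non-overlapping libraries were seen in 74.3% of the 74, with 38 precursors higher and 17 lower in fiery1. No call remained without the first or second fiery1 library (3 and 1 at an unadjusted p under 0.05) or without the first or second se library (15 and 11). The median log2 fold change was 1.03 over the 74 and turned to -0.26 with DESeq2's size factors, so changes are relative to that shift. Of the 74, 12 had no count in se. For 5 of the 12 hyl1 and wild type had none either, and these are the 5 called higher. They passed the filter on low values through the fiery1 libraries alone and so had to differ, and the count of higher calls supports nothing. Of the 62 with a count in se, 1 was called. The DESeq2 test called 22, with 5 higher and 17 lower and 1 shared with edgeR's calls. In the 32 precursors that reached 20 counts in all 4 libraries the median was -0.74, with 7 higher and 17 lower without overlap.

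The 5 precursors called higher had 0 counts in both se libraries, and each had low counts in fiery1. MIR395f, whose miRNA targets ATP sulfurylases and a sulfate transporter, had 179 and 506 counts in fiery1. Its ratio to a floor was 8.61, from a mean of 426 ± 89.8 normalised CPM (SD, n = 2). The floor was 3 counts per se library, 49.5 CPM on average. MIR171a had 166 and 179 counts in fiery1 and a ratio of 5.15. MIR771 had 184 and 124 counts in fiery1 and a ratio of 4.98. MIR447a had 84 and 199 counts in fiery1 and a ratio of 3.66. Of the counts of MIR447a over all tags, 0.352% were of a tag also listed for MIR447b. MIR162b, the second gene for the miRNA against DCL1, had 75 and 145 counts in fiery1 and a ratio of 2.95. A single library can lie below these ratios, and the floor covers counting error only. These precursors passed the filter through fiery1 alone and had to differ, so the ratios are no lower limits of a difference. The ratios also rest on edgeR's normalisation. With DESeq2's size factors the median log2 fold change over the 74 moved from 1.03 to -0.26. With tags of all lengths the se libraries held 120 and 118 counts of MIR162b, 57 and 83 of MIR395f and 283 and 1074 of MIR771. They held 51 and 1 of MIR171a and 0 and 1 of MIR447a. MIR162b and MIR771 then turned to log2 fold changes of -0.41 and -1.70, and MIR447a was the 1 of the 6 still called.

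MIR399a, a second PHO2-directed precursor, was the 1 precursor called lower. It stood at 1141 and 1453 normalised CPM in fiery1 and 15959 and 13653 in se, with a log2 fold change of -3.51 (SE 0.82, adjusted p = 0.0363 by edgeR). Its se level did not overlap that of fiery1, and its base-side share was near 100% in both. With DESeq2's size factors the log2 fold change of MIR399a was -4.77 and with library totals -3.35, where it was not called. Beside 6 of 74 called in all, 8.11%, the silencing-pathway regulators (miR162, miR168, miR403 and miR838) had 5 precursors tested, with 1 called higher (MIR162b, counted in fiery1 alone) and a median log2 fold change of 1.64, beside 1.03 over all 74. Nutrient-responsive families had 12 tested, with 1 higher (MIR395f, counted in fiery1 alone), 1 lower and a median of 2.71. That median rests on MIR395a, MIR395b, MIR395c, MIR395f, MIR397a and MIR827, which had at most 3 counts in either se library. Their log2 fold changes, from 4.12 to 9.64, lie near the floor of se. The rest of the 12, of miR398, miR399 and miR408, ran from -3.51 to 1.31. The NF-YA regulators of the miR169 family had 7 tested and a median of -2.65.

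**Figure D5:**
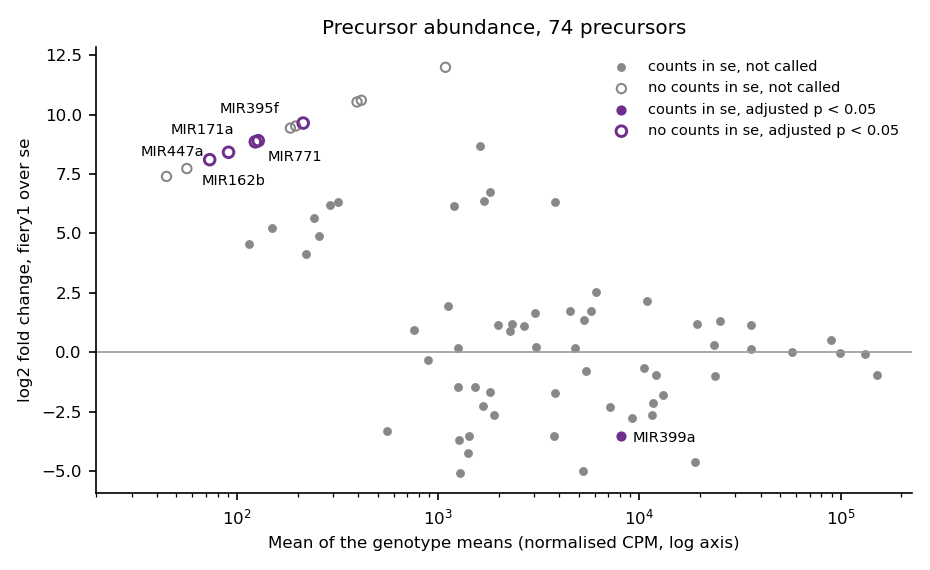
log2 fold change of fiery1 over se (vertical axis) against the mean of the genotype means (normalised CPM, log horizontal axis) for 74 precursors. Open circles have no counts in se, where the fold change depends on the prior count, and purple marks the 6 with an adjusted p under 0.05, of which MIR399a lies at -3.51.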

How the data were processed

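Deposited files gave whole-number counts per tag sequence with its precursor, position and length, without normalisation by the authors, as the values show. Position and tag length are other measures in the authors' files, in nt. Per the submitters' processing notes, cutadapt and TAIR10 were used, with no version. No aligner is given in the sources used here. The 111 file entries were placed on TAIR10.1 by exact matching of tags (99.57% of counts) and summed into 108 precursors where they lay within 5 nt. Entries with a blank count (13) were left out. RNAfold 2.7.2 settled the arm of mature sequences not named by arm.

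For abundance, edgeR 4.0.16 (TMM, quasi-likelihood test, filterByExpr with a minimum of 10) was run on all 8 libraries, contrast fiery1 minus se, and shares with limma 3.58.1 on the 4 libraries. DESeq2 1.42.0 was an alternative. P-values were adjusted by the Benjamini-Hochberg method over all precursors tested, with a threshold of 0.05. Scripts were tested on simulated data. Members, lists and tests were chosen with earlier results of these data known. The text names the precursors that lead each genotype, up to 12 rises and falls in abundance and 8 in each end class among calls without overlap, and main ends that differ between genotypes. Other precursors were chosen after their values were seen. Alternatives added after seeing the data were a constant scaled to depth, a tolerance of 2 nt for single precursors and predicted strands. Total counts were 470789 and 821562 in fiery1 and 299513 and 510438 in se.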

Additional observations from a re-analysis of the deposited data

Results flagged for a closer look

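The share of counts in tags under 26 nt, which the comparisons leave out, was 3.70% and 3.23% in the fiery1 libraries and 86.1% and 83.9% in the se libraries, beside 29.5% and 4.05% in wild type. Both se values lay above both wild-type values. MIR162a held 49.7% and 54.0% of these short-tag counts in fiery1 and 49.4% and 48.3% in se. MIR156e held 2.30% and 4.59% of them in fiery1 and 9.04% and 12.7% in se. Short tags had 0% base-side ends in all 4 libraries, and 0% loop-side ends in fiery1 and 0.0231% and 0.0003% in se. These values were largely fixed in advance. The base site lay at least 26 nt from the most used 3′ end of tags below the longest length in 84 of 85 annotated precursors. A tag under 26 nt with that 3′ end cannot begin at a base-side or loop-side end, so the values say nothing on where cuts fell.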

How the results depend on the processing

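The direction of all 3 library shares held under exact positions, a tolerance of 2 nt, a mean over precursors, added predicted strands and without the 3 precursors with the most counts, with base-side differences from 30.72 to 42.39 points. With tags of all lengths the loop-side difference reversed to 4.07 points, where the added short tags, mostly of se, count as other ends. Leaving out 1 library gave base-side differences from 39.92 to 42.16 points, loop-side from -8.15 to -5.19 and other from -36.97 to -31.77.

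The calls in abundance (5 higher, 1 lower) depended on the setting. They were 17 with tags of all lengths (11 higher, 6 lower), 10 with DESeq2's size factors (5 and 5), 22 with the DESeq2 test (5 and 17), 27 with the 4 libraries alone (23 and 4), 4 with library totals (4 and 0), 0 without the filter and 0 to 0 without 1 library. Base-side calls (12) were 37 with all tags, 4 in the 18 precursors with enough counts in all 8 libraries, and 0 to 24 without 1 library. Loop-side calls (16) were 25 with all tags, 6 with all 8 libraries, 4 with the scaled constant, and 0 to 12 without 1 library. Calls in other ends (9) were 35 with all tags, 1 with all 8 libraries, and 0 to 24 without 1 library. With all tags the short tags enter almost only as other ends, and mostly in se. The base-side and loop-side shares of se then fall by construction, so the end-class calls with all tags are no separate result. The fits with all tags, 4 libraries or 8 libraries also hold other numbers of precursors or samples. The cause of the other changes was not tested.

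With a replicate block, abundance calls were 0 (18 at an unadjusted p under 0.05), base-side calls 6, loop-side calls 15 and other calls 4. The deviations of same-numbered libraries had a correlation of -0.063 over 74 precursors, and the labels state no pairing.

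Over 43 single results and 526 settings, 335 kept their call, 180 lost it and 11 reversed. With all tags the log2 fold change was -0.41 for MIR162b and -1.70 for MIR771. On the logit scale, with all tags, the difference was 5.48 for MIR393b at the base side and -5.48 in other ends, and at the loop side 3.41 for MIR162a and 1.36 for MIR171c. In these all-tags values the short tags count as other ends. Within 2 nt it was -7.68 for MIR399b at the base side and 7.68 in other ends, and 4.16 for MIR158a at the loop side. At the loop side it was -1.89 for MIR160c at the exact position and 0.97 for MIR164b with the scaled constant. Depth in se limits the tests of ends, since 80 and 84 precursors reached 20 counts in the fiery1 libraries and 45 and 39 in the se libraries.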
